A study of Homo sapiens with 8 samples.

Results

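The genes described here encode the core of the epithelial tight junction: 6 claudins (CLDN1, CLDN2, CLDN3, CLDN4, CLDN7 and CLDN12), occludin (OCLN), the scaffold ZO-1 (TJP1), cingulin (CGN) and the junctional adhesion molecule JAM-A (F11R). They were taken by symbol from the count files, which list all 10 among 59050 gene symbols. The data are RNA-seq read counts from xenografts of H2122, an established line of human lung cancer cells. Of the 8 tumours, 4 are wild type for the engineered locus (called parental) and 4 carry a SMARCA4 knockout, and every animal received vehicle. SMARCA4 is the BRG1 motor protein of SWI/SNF, a machine that slides and ejects nucleosomes. The labels state neither the number of knockout clones nor the host strain. They also do not say that the tumours came from separate animals, so p-values measure the spread between these samples.

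Tight junctions close the space between neighbouring epithelial cells. Claudins are 4-pass membrane proteins that line up into strands, and the set of claudins in a strand fixes which ions pass: some, such as CLDN1, seal, while CLDN2 forms a channel for cations and water. Occludin and JAM-A sit in the same contacts, and ZO-1 and cingulin tie the strands to actin and myosin. Carcinomas of glandular origin often keep high CLDN3, CLDN4 and CLDN7.

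Libraries held 19785922 to 23191698 gene counts in parental and 20662882 to 21981123 in knockout tumours. SMARCA4 itself, the check of the labels, stood at 220, 229, 198 and 235 CPM (counts per 1000000 library counts, with TMM scaling) in parental replicates 1 to 4 and at 29.6, 26.2, 22.3 and 31.1 in knockout replicates 1 to 4, so no library contradicted its label. The carcinoma label was checked on 10 markers. KRT8 and KRT18, keratins of simple epithelia, were at 1550 to 2414 and 1056 to 1574 CPM, and EPCAM was at 433 to 564 CPM. The lung lineage factor gene NKX2-1 was at 0 counts throughout, which leaves room for at most 3 counts per library. The lung markers NAPSA and SFTPB, also among the 10, were at 0.680 to 1.22 and 0.0933 to 0.374 CPM. Summed markers of fibroblasts (181 to 611 CPM parental, 345 to 606 CPM knockout), endothelium (7.56 to 18.7 and 9.67 to 15.8), leukocytes (7.31 to 66.0 and 12.2 to 29.2) and skeletal muscle (0.362 to 34.7 and 0.390 to 16.9) overlapped between the groups. None of these 32 host markers was at 0 in all libraries, but 12 stayed under 1 CPM throughout, among them CLDN5, the claudin of endothelium. Single markers did differ: LUM, a matrix gene of fibroblasts, was at 0.374 ± 0.236 CPM in parental and 12.4 ± 2.50 in knockout tumours, VWF of endothelium at 1.97 ± 0.806 and 0.378 ± 0.0709, and the keratins KRT7 and KRT19 fell by 0.71 and 1.01 on the log2 scale (edgeR adjusted p = 0.000333 and 8.49e-05). The part of these differences in the results for the members was not tested. Parental replicate 2 had the highest sums for fibroblasts, leukocytes and muscle among all tumours. The fibroblast sums were mostly COL1A1 (174 to 572 CPM parental, 317 to 565 CPM knockout). The fibroblast markers PDGFRA, PDGFRB and DCN stayed under 1 CPM in every tumour. In bulk RNA, fewer cells of a type and less RNA per cell cannot be told apart.

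Promoter sequence is shown for 4 members: CLDN3 and CLDN4, neighbours on chromosome 7 that both fell, CLDN1, the member that rose, and OCLN, a non-claudin that fell. Each line gives the 250 bases before the RefSeq transcription start (GRCh38.p14), 5′ to 3′ on the gene's strand. Capitals mark letters that matched any of 3 searched motifs on either strand: CACCTG, the E-box bound by SNAI and ZEB repressors, AACNNGTT, the core bound by Grainyhead-like factors, and TGANTCA, the AP-1 site. No motif overlapped another in these windows.
CLDN3 (chr7:73770271-73770520, minus strand): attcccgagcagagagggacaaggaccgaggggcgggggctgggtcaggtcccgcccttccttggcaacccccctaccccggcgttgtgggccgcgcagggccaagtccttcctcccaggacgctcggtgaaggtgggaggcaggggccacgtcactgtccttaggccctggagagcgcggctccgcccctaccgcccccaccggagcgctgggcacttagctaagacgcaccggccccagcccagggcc
CLDN4 (chr7:73830746-73830995, plus strand): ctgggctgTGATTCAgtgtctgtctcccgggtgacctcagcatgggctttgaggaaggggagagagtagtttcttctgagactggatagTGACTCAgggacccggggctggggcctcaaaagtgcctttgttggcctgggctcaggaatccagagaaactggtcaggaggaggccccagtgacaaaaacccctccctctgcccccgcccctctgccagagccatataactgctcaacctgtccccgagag
CLDN1 (chr3:190322447-190322696, minus strand): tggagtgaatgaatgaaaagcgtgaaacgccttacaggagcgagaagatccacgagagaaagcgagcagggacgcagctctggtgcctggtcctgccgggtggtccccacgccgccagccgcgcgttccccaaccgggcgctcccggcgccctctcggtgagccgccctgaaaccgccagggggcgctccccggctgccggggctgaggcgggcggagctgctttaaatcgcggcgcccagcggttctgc
OCLN (chr5:69492297-69492546, plus strand): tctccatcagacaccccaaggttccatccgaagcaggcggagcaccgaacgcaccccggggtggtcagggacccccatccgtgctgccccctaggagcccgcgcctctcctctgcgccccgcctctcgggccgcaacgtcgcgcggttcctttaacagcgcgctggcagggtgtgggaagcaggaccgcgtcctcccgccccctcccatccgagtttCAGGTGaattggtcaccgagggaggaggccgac
CLDN4 held 2 AP-1 matches, 242 and 161 bases before the start, and OCLN held 1 E-box match 33 bases before it. Over windows that add the 50 bases after the start, 9 members had a sequence, and E-box letters occurred in 3 of them (CLDN3, OCLN, TJP1), AP-1 letters in 2 (CLDN2, CLDN4) and Grainyhead-like letters in 1 (CGN). Among 27305 RefSeq promoters of this length the shares were 20.6%, 7.76% and 3.50%. GC content of the claudin promoters was 47.3% in CLDN2, with 1 CpG, 56.0% in CLDN12, with 15, 59.0% in CLDN4, with 5, 60.0% in CLDN7, with 10, and 67.0% and 72.0% in CLDN1 and CLDN3, with 31 and 24, against a median of 58.3% over all promoters. These are matches of letters, and binding was not measured.

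In knockout tumours 5 of the 10 members fell, 1 rose and 4 did not pass the test (edgeR quasi-likelihood test, adjusted p under 0.05 over 16219 tested genes). All 10 had passed the filter on low counts. Across all tested genes the same test called 27.0%, with 14.1% lower and 13.0% higher. Among the members that passed, CLDN3 and CLDN4 fell most, CLDN12, OCLN and CLDN7 by smaller steps, and CLDN1 rose. The median log2 fold change of the 10 members was -0.35, against 0.00 over all genes tested. Values of the parental and knockout tumours did not overlap for 5 members, all lower in knockout, while this held for 29.3% of all tested genes and, in the lower direction, for 15.3% (14.0% in the higher direction). Only CLDN3, CLDN4 and CLDN12 were called in all 17 fits run. Without knockout replicate 1, or without knockout replicate 3, these 3 were the only calls left among the members.

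**Figure D1:**
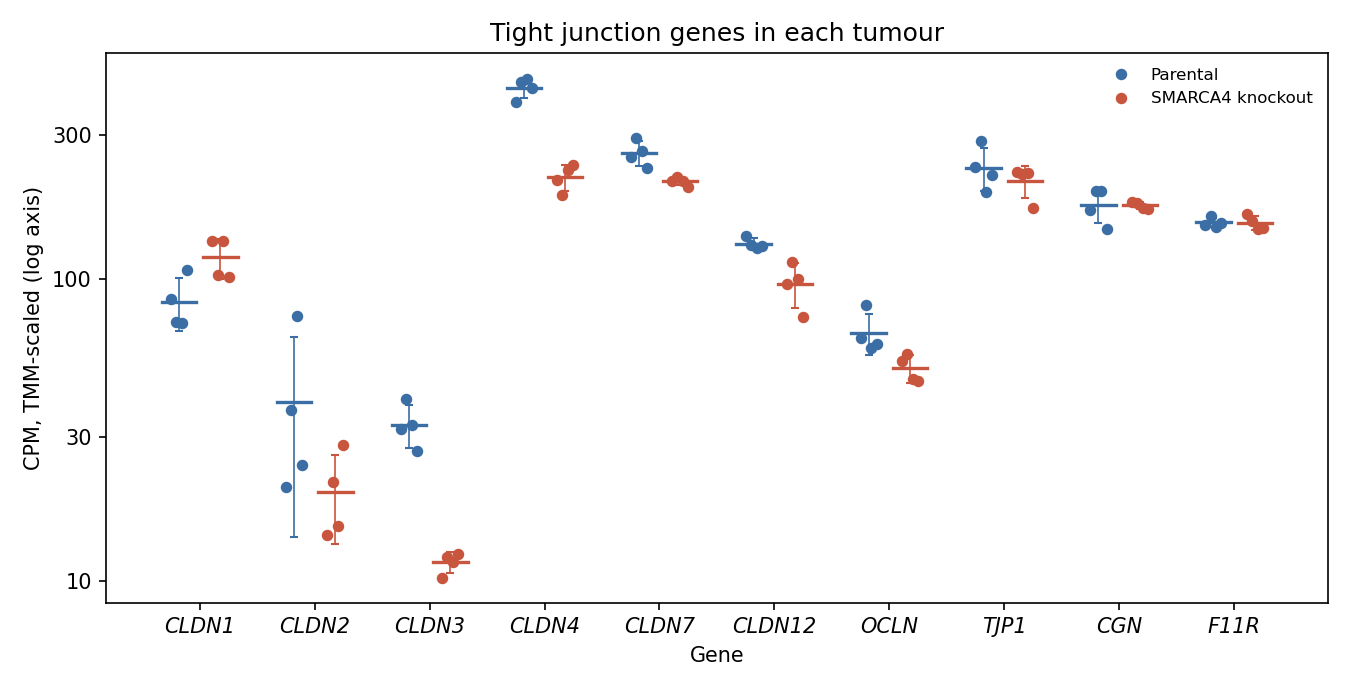
CPM of each member gene (log axis) in the 4 parental (blue) and 4 SMARCA4 knockout (red) tumours, with points for tumours, a horizontal bar for the mean and whiskers for the SD. CLDN3 and CLDN4 show a clear gap between the groups, CLDN1 is higher on average in knockout with overlapping ranges, and CGN and F11R coincide.

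CLDN3 and CLDN4 encode a closely related pair of barrier claudins, both known as receptors for the enterotoxin of Clostridium perfringens. CLDN3 (ENSG00000165215, chromosome 7, 73768997 to 73770270, minus strand, 1 exon) was at 31.8, 40.0, 32.8 and 26.9 CPM in parental replicates 1 to 4 and at 10.2, 11.99, 11.5 and 12.3 CPM in knockout replicates 1 to 4. Each knockout tumour lay below each parental one, and the knockout values were close together. The knockout mean was 35.0% of the parental mean, and edgeR gave a log2 change of -1.51 (SE 0.129, adjusted p = 1.07e-05). Among the members it had the largest relative change and the lowest mean CPM.

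CLDN4 (ENSG00000189143, chromosome 7, 73799542 to 73832693, plus strand) had the highest CPM of the 10 members in parental tumours. Its values were 385, 449, 458 and 429 CPM in parental and 212, 190, 229 and 238 CPM in knockout replicates 1 to 4. The groups were far apart, with the highest knockout tumour well under the lowest parental one. The knockout mean of CLDN4 was 50.4% of the parental mean, a log2 change of -0.99 by edgeR (SE 0.0961, adjusted p = 2.66e-05). In absolute terms CLDN4 lost far more reads than CLDN3, since it started from 430 ± 32.4 CPM against 32.9 ± 5.42 (SD, n = 4 each). The ratio of CLDN3 to CLDN4 counts within a tumour, which no scaling can alter, was 0.0628 to 0.0892 in parental and 0.0483 to 0.0631 in knockout tumours, so the groups overlapped slightly on it.

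CLDN7, which binds the adhesion protein EPCAM at lateral membranes, changed little by comparison. CLDN7 (ENSG00000181885, chromosome 17, 7259903 to 7263983, minus strand) was at 254, 292, 265 and 233 CPM in parental and at 212, 217, 212 and 202 CPM in knockout replicates 1 to 4. The groups did not overlap, although the lowest parental and highest knockout tumours were near each other. In the edgeR fit CLDN7 fell by 0.31 (log2; SE 0.0865, adjusted p = 0.0205), and the adjusted p was 0.0545 without knockout replicate 1 and 0.0556 without knockout replicate 3. The exons of CLDN7 overlap those of ELP5, on the opposite strand, over 1.52% of their length and those of AC003688.1, which had 0 counts, over 10.8%. The ratio of CLDN4 to CLDN7 counts moved from 1.52 to 1.84 in parental tumours to 0.874 to 1.18 in knockout tumours, with no overlap.

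CLDN12 is an unusual claudin whose tail lacks the usual motif for binding ZO proteins. CLDN12 (ENSG00000157224, chromosome 7, 90383721 to 90513402, plus strand) was at 139, 129, 127 and 129 CPM in parental and at 96.4, 114, 99.6 and 74.6 CPM in knockout replicates 1 to 4. Parental tumours were tightly grouped (CV 4.16%), while the knockout tumours spread more widely (CV 16.9%) below them. CLDN12 changed by -0.44 (log2; SE 0.116, adjusted p = 0.0150 by edgeR). The annotated exons of CLDN12 overlap those of GTPBP10 and CDK14 on the same strand over 5.15% and 2.98% of their length, where reads cannot be assigned with certainty. On that strand AC006153.1 and AC002456.2, which had 0 counts, also overlap the CLDN12 exons, over 5.5% and 4.09% of their length. GTPBP10 had 3316 parental and 2508 knockout counts, and CDK14 had 3277 and 4813. The part of these overlaps in the CLDN12 result was not tested.

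CLDN1, a sealing claudin needed for the skin barrier, went the other way. CLDN1 (ENSG00000163347, chromosome 3, 190305701 to 190322475, minus strand) was at 85.4, 71.8, 71.6 and 107 CPM in parental and at 134, 103, 133 and 102 CPM in knockout replicates 1 to 4. Parental replicate 4 lay above knockout replicates 2 and 4, so the groups overlapped. A rise of 0.49 on the log2 scale passed the test (SE 0.147, adjusted p = 0.0292 by edgeR). This call was lost in 5 of the 8 fits that left out 1 tumour: the adjusted p was 0.0651, 0.0617 and 0.0770 without parental replicates 1, 2 and 3, and 0.0867 and 0.0863 without knockout replicates 1 and 3. CLDN1 counts relative to CLDN4 counts in the same tumour were 0.156 to 0.249 in parental and 0.427 to 0.631 in knockout tumours, which did not overlap. CLDN4 itself was lower in knockout tumours, and a lower CLDN4 alone raises this ratio.

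CLDN2, the cation and water channel of leaky epithelia, was the most variable member. CLDN2 (ENSG00000165376, chromosome X, 106900164 to 106930861, plus strand) was at 20.4, 36.7, 75.3 and 24.1 CPM in parental and at 14.1, 21.2, 15.2 and 28.1 CPM in knockout replicates 1 to 4. An opposite-strand gene, RIPPLY1, covers 10% of its exon length and had 2 counts in all libraries together. The parental tumours differed among themselves more than the groups did, with replicate 3 far above the others (CV 64.2% parental, 32.6% knockout). Its fitted log2 change was -0.99 (95% interval -1.82 to -0.17 before adjustment, edgeR adjusted p = 0.0717), and the gene was not called. Without parental replicate 1 or 4 it was called at -1.22 (edgeR adjusted p = 0.0333) or -1.18 (0.0434), while without parental replicate 3 the fold change was -0.46 (0.220).

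**Figure D2:**
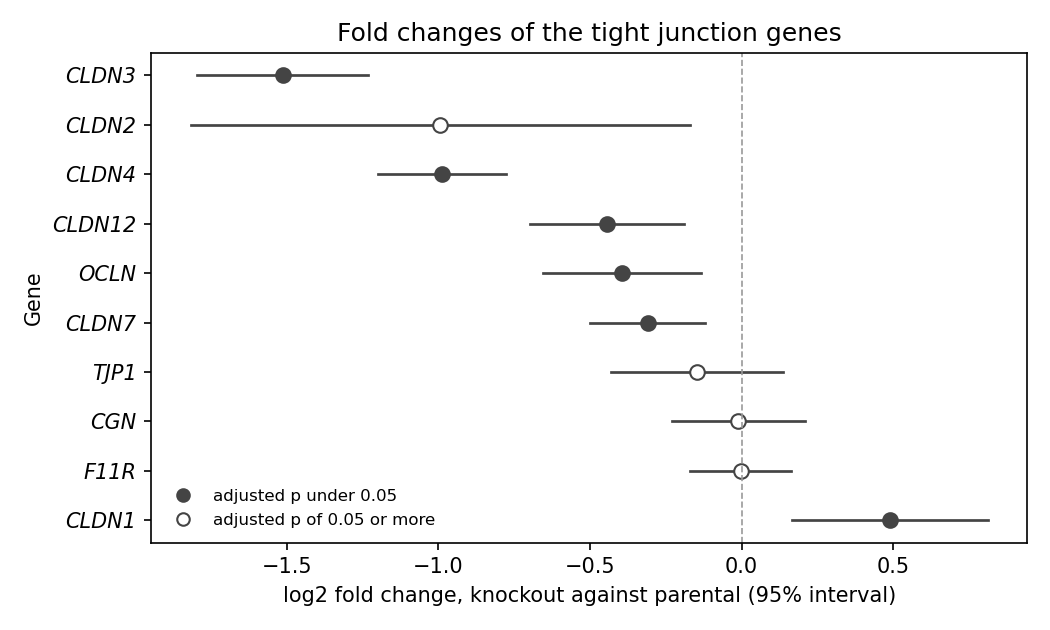
Log2 fold change of each member, knockout against parental, with its unadjusted 95% interval from the edgeR fit (horizontal axis, log2 units), ordered from the largest fall to the rise. Filled points passed the adjusted threshold, CLDN2 has the widest interval and the points of CGN and F11R lie at 0.

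Occludin was the only member outside the claudins that passed the test. OCLN (ENSG00000197822, chromosome 5, 69492292 to 69558104, plus strand) was at 63.8, 81.6, 59.1 and 60.8 CPM in parental and at 53.3, 56.5, 46.5 and 45.7 CPM in knockout replicates 1 to 4. Every knockout value lay below every parental value, by a narrow margin. OCLN fell by 0.39 (log2; SE 0.118, adjusted p = 0.0293 by edgeR). The adjusted p was 0.0560 without parental replicate 2, the tumour with the highest OCLN, leukocyte and muscle marker values; the part of those host markers in the result was not tested. It was 0.0527, 0.0884 and 0.0763 without knockout replicates 1, 3 and 4. A partial copy, OCLNP1, had 28 parental and 42 knockout counts, and how many reads the 2 copies share was not measured, so OCLN counts are uncertain where they are near identical.

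The 2 cytoplasmic members did not pass the test. TJP1 (ENSG00000104067, chromosome 15, 29699367 to 29968865, minus strand), the ZO-1 scaffold that gathers claudins and occludin, was at 234, 286, 194 and 220 CPM in parental and at 226, 222, 224 and 172 CPM in knockout replicates 1 to 4. The groups overlapped over most of their range, and knockout replicate 4 stood below the other knockout tumours. Its log2 fold change was -0.15 (95% interval -0.43 to 0.14, edgeR adjusted p = 0.437). CGN (ENSG00000143375, chromosome 1, 151510510 to 151538692, plus strand), which couples ZO proteins to myosin, was at 169, 195, 195 and 146 CPM in parental and at 179, 178, 172 and 170 CPM in knockout replicates 1 to 4. The knockout values fell inside the parental range. CGN had a log2 change of -0.01 (95% interval -0.23 to 0.21, edgeR adjusted p = 0.953), an interval that leaves room for small changes in either direction.

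F11R, the immunoglobulin-type adhesion molecule JAM-A, varied least of the members among parental tumours (CV 3.56%). F11R (ENSG00000158769, chromosome 1, 160995211 to 161021348, minus strand) was at 151, 161, 149 and 153 CPM in parental and at 164, 156, 146 and 147 CPM in knockout replicates 1 to 4. The groups were interleaved. F11R had a log2 change of 0.00 (95% interval -0.17 to 0.16, edgeR adjusted p = 0.981). A readthrough gene, AL591806.3, overlaps 36.6% of the annotated exon length of F11R on the same strand and had 21 parental and 9 knockout counts; reads in the shared part may have been left out as ambiguous, which lowers the F11R level.

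Levels of different genes were compared per kilobase of annotated exon (CPM per kb). In parental tumours CLDN7 (105 ± 9.98) and CLDN4 (91.5 ± 6.89; SD, n = 4 each) stood above all other members, with ranges that overlapped each other. F11R (30.3 ± 1.08), CGN (26.6 ± 3.52), CLDN3 (25.8 ± 4.25), CLDN1 (22.9 ± 4.52), TJP1 (20.7 ± 3.42), CLDN12 (19.4 ± 0.806), CLDN2 (11.5 ± 7.36) and OCLN (9.81 ± 1.53) followed, and each overlapped its neighbour in this order. In knockout tumours CLDN7 (84.5 ± 2.63) lay clear of CLDN4 (46.2 ± 4.46), and CLDN1 (32.2 ± 4.95) came next, level with F11R (30.2 ± 1.62) within their ranges. CLDN3 moved from place 5 to place 8, at 9.03 ± 0.710, where its range met that of OCLN (7.47 ± 0.776). With the longest transcript as the length, CLDN12 ranked 3 in parental and 6 in knockout tumours, in place of 8 and 7, and CLDN3 moved only from 7 to 8, so the middle of the order depends on the length chosen.

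The makeup of the claudin pool was then described from the shares of 24 claudin genes in their summed level per kb. CLDN7, CLDN4, CLDN3 and CLDN1 together formed most of it in every tumour. The share of CLDN4 went from 32.1% ± 1.45 to 23.1% ± 2.14 and that of CLDN3 from 9.03% ± 1.06 to 4.53% ± 0.410, parental to knockout (SD, n = 4 each). The share of CLDN1 went from 8.14% ± 2.11 to 16.1% ± 2.18 and that of CLDN7 from 36.7% ± 1.92 to 42.4% ± 1.55. None of these 4 shares overlapped between the groups; a share can grow because others shrink, and CLDN7 itself was lower in knockout tumours. The summed level of all claudins was 268 to 303 CPM per kb in parental and 196 to 206 in knockout tumours. By longest transcript the CLDN4 share was 29.7% in parental tumours and the CLDN1 share 13.7% in knockout tumours.

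**Figure D3:**
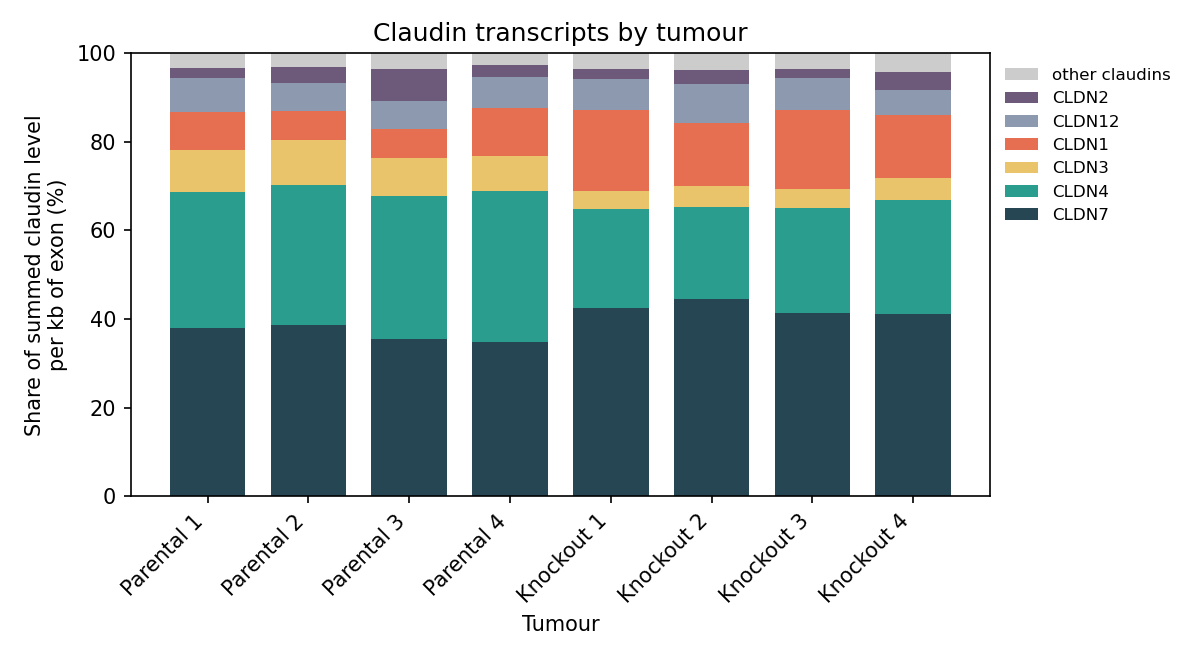
Share (%) of each claudin in the summed claudin level per kb of exon, 1 stacked bar per tumour. In the 4 knockout bars the CLDN4 and CLDN3 segments are thinner and the CLDN1 segment thicker than in the 4 parental bars.

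The other claudins added little. Of 17 further family members listed, 3 passed the filter on low counts and 1 was called. CLDN23 fell from 9.06, 10.6, 13.8 and 9.27 CPM in parental to 4.35, 5.27, 5.60 and 5.88 CPM in knockout replicates 1 to 4, a log2 fold change of -1.02 on edgeR's test (SE 0.168, adjusted p = 0.00103), with no overlap. CLDN10 and CLDN15, which form ion channels, were tested and not called. CLDN18, the claudin of alveolar epithelium, had 0 counts in all libraries, as did 5 others of this list, and CLDN5 had at most 2 counts in a library.

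Genes that act around the members were read from 6 further lists. In the list of other membrane proteins 3 of 6 tested genes fell and none rose, where 14.1% of all tested genes fell (median log2 fold change of the list -0.18): the pair that marks 3-cell corners, LSR (log2 fold change -0.50, edgeR adjusted p = 0.000400) and ILDR1 (-0.66, 0.000820), and tricellulin, MARVELD2 (-0.27, 0.0409), which those proteins recruit. LSR went from 195 ± 4.05 to 138 ± 5.80 CPM and ILDR1 from 17.2 ± 1.17 to 10.8 ± 0.813 CPM (SD, n = 4 each), both without overlap. The MARVELD2 call was lost in 6 of 8 fits without 1 tumour (those without parental replicates 1 and 2 and without each knockout replicate; edgeR adjusted p 0.0548 to 0.0980). CXADR, the receptor shared by coxsackieviruses and adenoviruses, did not pass (edgeR adjusted p = 0.607), with means of 24.0 ± 4.14 (parental) and 26.0 ± 3.98 CPM (knockout).

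In the list of other plaque proteins 17 of 21 tested genes were not called, with 2 higher and 2 lower (13.0% and 14.1% of all tested genes) and a median of 0.02. The ZO-1 relative TJP3 (88.4 ± 13.9 CPM in parental, 79.8 ± 6.17 in knockout, edgeR adjusted p = 0.373) was among those not called. Paracingulin, CGNL1, the close relative of cingulin, fell from 3.11, 2.29, 7.55 and 4.76 CPM in parental to 0.561, 0.682, 0.513 and 0.513 CPM in knockout replicates 1 to 4, a log2 fold change of -2.96 (edgeR adjusted p = 0.000182). The angiomotins, which bind polarity scaffolds and YAP, split: AMOT fell to 3 counts over all knockout libraries from 198 in parental, a ratio of 65.3 (exact 95% interval 22.0 to 319, counting error only), while AMOTL1 rose from 90.3 ± 14.5 to 143 ± 18.5 CPM (log2 fold change 0.66, edgeR adjusted p = 0.00279) and AMOTL2 rose by 0.37 (0.0330). The AMOTL2 call was lost without parental replicates 1 or 3 and without knockout replicates 1 or 3, with edgeR adjusted p from 0.0695 to 0.105.

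In the list of claudin partners and surface proteases 5 of 10 fell and 1 rose, against 14.1% and 13.0% of all tested genes (median -0.36). PRSS8, or prostasin, a membrane serine protease of tight epithelia, fell from 89.5 ± 15.9 to 31.5 ± 2.94 CPM (log2 fold change -1.51, edgeR adjusted p = 1.16e-05), and TMPRSS4, another such protease, fell from 359 ± 64.2 to 181 ± 24.3 CPM (-0.99, 0.000353). The tetraspanin CD9 was at -0.63 (0.000814), and the protease HPN rose by 2.18 (0.00173) from a level under 1 CPM. EPCAM, the partner of CLDN7, was at 515 ± 58.1 and 441 ± 5.70 CPM, with a log2 fold change of -0.23 that did not pass (edgeR adjusted p = 0.0943). EPCAM passed without parental replicate 3 (edgeR adjusted p = 0.0368) and by DESeq2 (0.0472).

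Regulators of junction genes, most of them transcription factors, were also counted. The activator list also holds the splicing regulators ESRP1, which fell, and ESRP2, which was not called. In the list of epithelial activators 8 of 18 tested genes fell and 2 rose (median -0.48), while over all tested genes 14.1% fell and 13.0% rose. GRHL2, the Grainyhead-like activator known for CLDN4 and E-cadherin, was at 86.4, 76.7, 81.7 and 89.2 CPM in parental and at 46.1, 41.3, 47.3 and 46.5 CPM in knockout replicates 1 to 4. Its groups lay far apart (log2 change -0.88, SE 0.0836; adjusted p = 2.23e-05, edgeR). TP63 (-2.34, edgeR adjusted p = 0.000213), FOXA1 (-0.81, 0.000434) and FOXA2 (-1.88, 0.000482) fell as well. ELF3 had a log2 fold change of -0.44 (edgeR adjusted p = 0.0503) and passed in 6 of the alternative fits. Of 7 tested repressors, 1 rose and 1 fell, a share near the 27.0% called over all tested genes: ZEB1 rose from 2.41 ± 0.771 to 8.19 ± 0.649 CPM (log2 fold change 1.77, edgeR adjusted p = 0.000138), and SNAI2 fell from 10.9 ± 3.17 to 2.31 ± 0.417 CPM (-2.24, 3.43e-05).

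Adherens junctions and desmosomes, the neighbouring contacts, held 7 fallen and 2 risen genes among 19 tested (median -0.12; all tested genes, 14.1% and 13.0%). E-cadherin, CDH1, was at 149, 199, 143 and 166 CPM in parental and at 194, 176, 185 and 139 CPM in knockout replicates 1 to 4, with overlapping groups (log2 fold change 0.08, edgeR adjusted p = 0.704). PKP4, an armadillo protein of both contacts, fell from 98.2 ± 2.73 to 48.9 ± 1.34 CPM (-1.01, edgeR adjusted p = 3.32e-06). The nectins NECTIN1 (-1.11, 0.000309) and NECTIN4 (-0.48, 0.00148) fell together with afadin, AFDN (-0.52, 0.00140), which binds nectins and JAM-A from inside the cell. NECTIN2 fell as well (-0.62, edgeR adjusted p = 0.00441), while NECTIN3 was not called (-0.37, 0.144) and its groups overlapped.

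**Figure D4:**
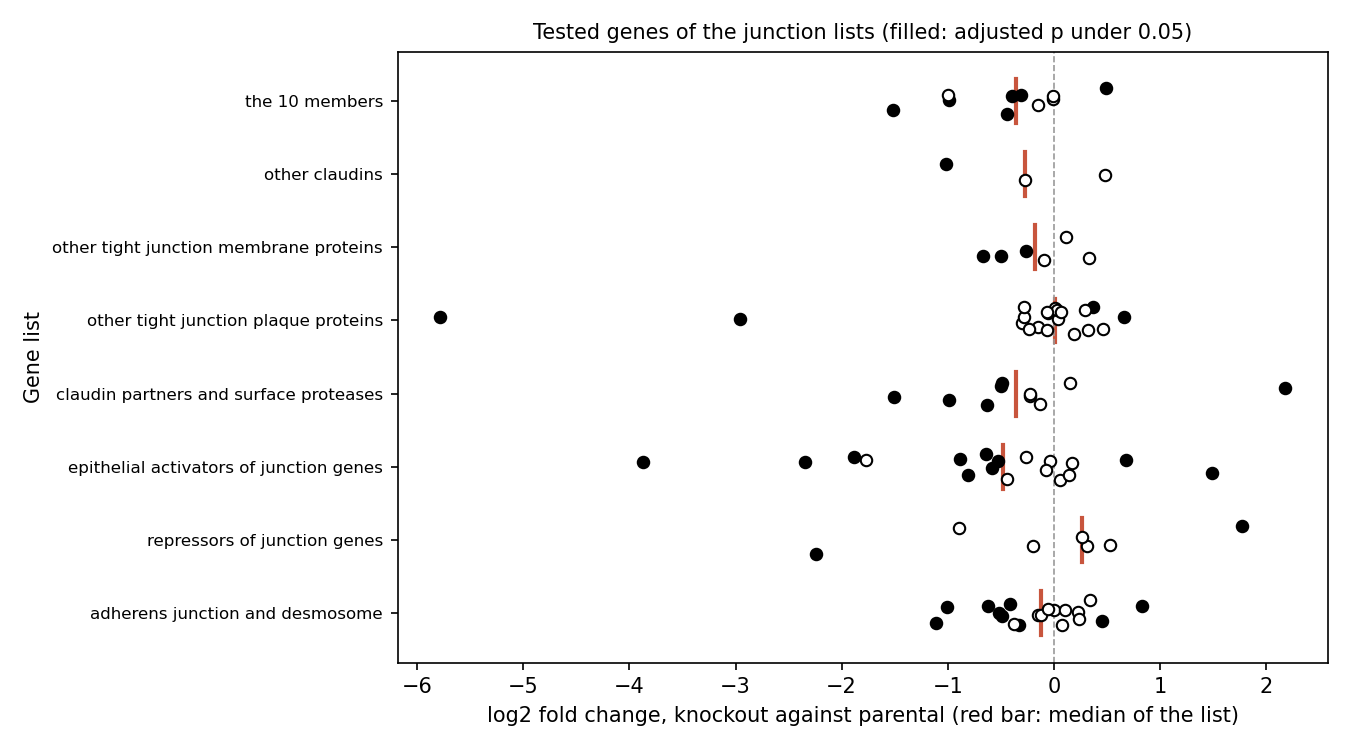
Log2 fold changes (horizontal axis) of all tested genes in the 10 members and 7 junction lists (rows), with filled points for adjusted p under 0.05 and a red bar for each list's median. The activator and partner lists have medians of -0.48 and -0.36. The plaque list has a median of 0.02, with AMOT and CGNL1 far to the left. AMOTL1 (0.66), PARD6B (0.46, not called) and AMOTL2 (0.37) lie to its right.

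The genes whose pattern over the 8 tumours was most like that of CLDN3 were sought among 13052 others whose average log2 CPM was 1 or more. Likeness was the mean absolute difference between centred log2 levels. ST8SIA4 (0.0949), CD47 (0.111) and CDYL2 (0.114) came first. CD47, the surface signal that restrains phagocytes, was at 120 ± 12.6 and 46.5 ± 3.37 CPM (SD, n = 4 each). Among the members CLDN4 came nearest to CLDN3, at 0.248 and place 146, while the other members ranked from 1192 for CLDN12 to 11566 for CLDN1.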

How the data were processed

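Total RNA of 8 tumours was sequenced, and each tumour has 1 file. The authors deposited raw read counts per gene symbol; per the submitters' processing notes the tools were TopHat2 2.1.1 and HTSeq 0.11.0 on hg38. The annotation, the counting options and any removal of mouse reads are not given in the sources used here, and the library kit named in the labels does not mark strand, so host reads that resemble human transcripts and reads of overlapping genes can enter or leave a count. The 5 summary lines were left out; 79.1% to 85.2% of reads were assigned to genes. No 2 libraries agreed within sampling noise (lowest chi-square per degree of freedom 8.21).

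Genes were filtered by filterByExpr (minimum count 10, minimum total 15), scaled by TMM and tested by the edgeR 4.0.16 quasi-likelihood F-test, knockout against parental, with Benjamini-Hochberg adjustment over 16219 genes and a threshold of 0.05. SE is the fold change over the square root of F. The test was checked on simulated data. Alternatives were DESeq2 1.42.0, limma-voom 3.58.1, 3 other scalings, 2 other filters, a replicate block and leaving out each tumour. Lengths and positions are from GENCODE 29 (GRCh38), promoters from RefSeq. The members and lists were chosen with earlier results of these data known. Named were SMARCA4, the 10 members, up to 4 called genes with the smallest p per further list, 12 genes regardless of result and the 3 genes most like the member that changed most. Results for 1 further list and 1 named gene are not reported here. A count of 0 allows up to 3 counts; intervals and that limit cover counting error only.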

Additional observations from a re-analysis of the deposited data

Results flagged for a closer look

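In 100 sets of 4 tumours, taken from the named genes, the claudin sum and the marker sums, 10 had a highest or lowest tumour whose gap to the next exceeded the 95% critical share of the whole range by Dixon's criterion; chance alone gives about 5%. Among the members this held once: TJP1 was at 172 CPM in knockout replicate 4, against 222 to 226 in the other knockout tumours. CXADR was low in the same tumour, at 20.03 CPM against 27.8 to 28.1, and its skeletal muscle markers summed to 16.9 CPM against 0.390 to 0.841. LSR was at 129 CPM in knockout replicate 2 (others 140 to 141), the tumour with endothelial markers at 15.8 CPM (others 9.67 to 9.94). AFDN was at 126 CPM in parental replicate 2 (others 102 to 105) and at 82.8 CPM in knockout replicate 1 (others 74.0 to 74.6). CD9 was at 159 CPM in parental replicate 4 (others 124 to 128). The last 2 sets rest on 1 or 2 counts: AMOT was at 0 in knockout replicate 3 and at 1 count in each other knockout tumour, and CLDN5 was at 0.104 CPM (2 counts) in parental replicate 1 and at 0 in the others.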

How the results depend on the processing

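CLDN3, CLDN4 and CLDN12 kept their direction and call in all 16 alternatives, and TJP1, CGN and F11R were called in none. The number of members called was 6 to 7 over the 8 fits on all tumours and 3 to 7 without 1 tumour, with 3 in the fits without knockout replicate 1 or without knockout replicate 3. Over all genes 3501 to 4721 were called without 1 tumour. The number of members without overlap was 5 to 6. CLDN2 was called when no low-count filter was used (adjusted p = 0.00434). Of 160 checks of a member under an alternative, 136 kept their direction and side of the threshold, 11 lost a call, 3 gained one and 10 changed sign without a call. The sign changes were those of CGN and F11R, whose fold changes lay near 0: 0.0248 and 0.0333 by upper-quartile scaling, 0.00434 and 0.0128 under the stricter filter, and from -0.0953 to 0.0395 and from -0.0346 to 0.0201 without 1 tumour. Upper-quartile scaling gave 54.1% of all calls as higher, against 47.9%, and moved the median fold change by less than 0.1. With a replicate block 3871 genes and 6 members were called. Same-numbered tumours showed no sign of pairing, with correlations of -0.283 to 0.0993 over 4 pairs. Differently numbered tumours of the 2 groups had correlations of -0.275 to 0.331. These correlations cannot show whether tumours shared a day or batch. The block ended the calls of MARVELD2 (adjusted p = 0.0651) and AMOTL2 (0.0762). MARVELD2 also lost its call by upper-quartile scaling (0.0541) and with no low-count filter (0.0688). Under the stricter filter of 50 counts in 4 tumours, 2 plaque genes were called in place of 4, since AMOT and CGNL1 were no longer tested. The cause of the other changes was not tested. With 19785922 or more counts per library, the member with the lowest counts, CLDN3, had at least 219 in each; the effect of depth on the calls was not tested.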

Other observations

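The GENCODE spans of CLDN3 and CLDN4 lie 29271 bases apart on chromosome 7 (the RefSeq start of CLDN4, whose promoter is shown above, lies further from CLDN3), and the genes around the pair were read after their values were seen. Within 100 kb on either side, 7 other genes were tested, of which 6 had a negative fold change, 3 were called lower and none was called higher (edgeR adjusted p under 0.05; 14.1% of all tested genes were called lower). ABHD11, next to CLDN3, went from 64.7 to 34.2 CPM (log2 fold change -0.92, SE 0.116, edgeR adjusted p = 0.000154). DNAJC30 (-0.51, edgeR adjusted p = 0.00134) and VPS37D (-0.76, 0.00782) were the others, and METTL27, on the far side of CLDN4, was at -0.14 (0.571).

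Among the cadherins of these contacts, 2 that rose were picked after their values were seen. The desmoglein DSG3 rose from 20.2 ± 5.34 to 36.0 ± 1.65 CPM (SD, n = 4 each; log2 fold change 0.83, edgeR adjusted p = 0.00436), and P-cadherin, CDH3, rose by 0.45 (edgeR adjusted p = 0.0442) with overlapping groups. The desmosomal cadherins DSG2 (0.10, edgeR adjusted p = 0.618) and DSC2 (0.34, 0.1035) did not pass, and differences between these genes were not tested.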
